A study of Mus musculus with 51 samples.

Results

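White adipose tissue (WAT) and gastrocnemius muscle of the same 4 sham-operated mice were compared, to describe how 2 tissues that respond to insulin differ in gene expression after an overnight fast. The libraries were chosen as all sham libraries from animals that gave both tissues, which are 8 of the 51 libraries of the series: WAT and muscle of animals W11, W12, W15 and W3. The comparison covers the 11092 genes listed in the tables of both tissues, of 13192 genes listed in either. All mice were male C57Bl6 animals made obese by high-fat food, with no age stated in the sources used here. Each had a sham operation, a period on liquid elemental diet, a return to high-fat food in restricted rations that kept its weight near that of mice with Roux-en-Y gastric bypass (RYGB), and a fast through the night before it was killed in the morning, 9 weeks after surgery. The WAT was subcutaneous. WAT was frozen in liquid nitrogen and muscle was kept in a stabilising solution, so the tissue and its preservation cannot be told apart. RYGB and sham mice were compared only to ask whether the difference between the tissues was the same in other animals, with WAT and muscle of 4 RYGB mice (R1 to R4) that went through the same diets after a bypass of the upper gut.

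Insulin binds its receptor on fat and muscle cells, and signalling through receptor substrates, PI3-kinase and Akt brings the glucose transporter GLUT4 to the cell surface. During a fast insulin is low. Adipocytes then hydrolyse stored triglyceride and release fatty acids and glycerol, while muscle takes up fatty acids, burns them in mitochondria and spares glucose by switching off pyruvate dehydrogenase. Gastrocnemius is made mostly of fast-twitch fibres, which contract on glycogen and phosphocreatine, with a smaller share of oxidative fibres.

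Values are CPM, the reads of a gene scaled to a common library total, and the tissue difference of a gene is the WAT minus muscle difference of log2(CPM + 1), given with its standard error, from a fit with the animal as a block. A gene is called higher or lower in WAT at an adjusted p below 0.05. Values of single libraries are always in the order W11, W12, W15 and W3. Values across animals of 1 tissue correlated at r = 0.978 to 0.99 in WAT and 0.967 to 0.99 in muscle, and at 0.623 to 0.656 between the tissues, over genes. The 10 most abundant genes held 12.23% to 14.96% of the CPM in WAT and 14.97% to 22.33% in muscle. In these tissues, made of many cell types, fewer cells of a type and less RNA per cell cannot be told apart.

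The labels of both tissues were met by their markers. All 18 adipocyte genes in both tables were higher in WAT (17 after the scaling described below, which ended the call of Lpl), with a median log2 difference of 6.10, and all 19 muscle fibre genes were lower in WAT on both scales, with a median of −10.09. Over all genes in both tables, 61.7% were called higher in WAT and 19% lower (80.7% in either direction), and the median difference was 0.72. The libraries of the tissues did not overlap for 59.9% of genes with WAT above and 17.7% with WAT below. Adiponectin (Adipoq), the most characteristic hormone of adipocytes, had 1889, 1984, 1459 and 2024 CPM in WAT, against 18.1, 14.4, 5.2 and 13.4 CPM in muscle. The hormone leptin (Lep), which signals fat stores to the brain, had 2068, 1561, 2069 and 436 CPM in WAT, against 26.0, 20.8, 5.3 and 9.4 CPM in muscle. The WAT of W3 was low for leptin, and the groups did not overlap for either hormone. In the other direction, fast myosin heavy chain (Myh4) had 13.4, 11.5, 17.3 and 17.4 CPM in WAT, against 36759, 59168, 29033 and 43418 CPM in muscle. Muscle creatine kinase (Ckm), which regenerates ATP from phosphocreatine, had 3.8, 2.9, 4.5 and 8.4 CPM in WAT, against 8993, 13199, 7548 and 9947 CPM in muscle. Both muscle genes were present at low levels in every WAT library. The adipocyte list summed to 43295 to 60640.1 CPM in WAT and 3971 to 10222 CPM in muscle, and the muscle fibre list to 152 to 222 CPM in WAT and 172159.6 to 238732 CPM in muscle. These sums run over the members listed in each table, 21 adipocyte genes in WAT and 18 in muscle, and 19 muscle fibre genes in WAT and 29 in muscle. The adipocyte sum in muscle does not mark adipocytes alone. It includes Lpl, which was abundant in muscle too (values below). Other members were scarce there: mean Plin1 was 4.0 CPM in muscle and 1071 CPM in WAT, and mean Cidec 9.7 and 2050 CPM. No member of these lists in both tables was at 0 in any of the 8 libraries. What adipocytes among the muscle fibres add to each muscle value below was not tested.

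**Figure D1:**
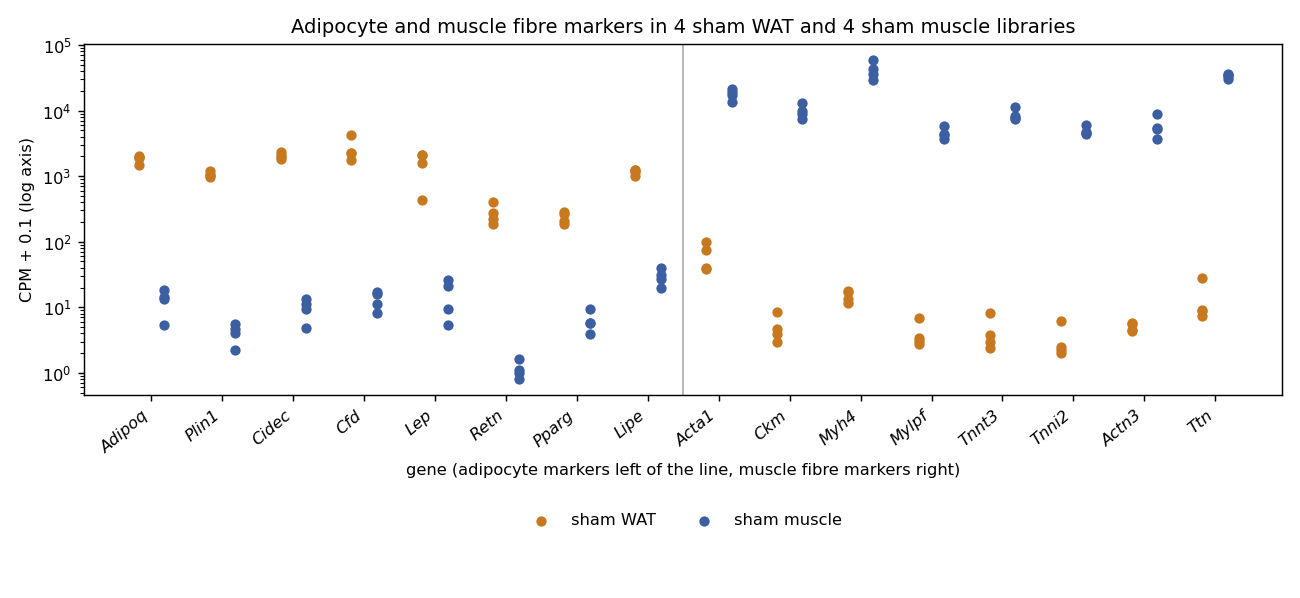
CPM + 0.1 on a log axis of 8 adipocyte markers and 8 muscle fibre markers; each point is 1 library, with 4 sham WAT libraries left of 4 sham muscle libraries for every gene. Each marker separates the tissues without overlap, and Lep in WAT has 1 library (W3, 436 CPM) far below the other animals.

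The promoters of these marker genes are shown because their members move together, and each can be read for short motifs known from muscle and fat genes. CAGCTG is a form of the E-box that myogenic factors of the MyoD family bind, and TTGCNNAA is the core of the site that C/EBP factors bind in adipocyte genes. The 250 bases before the start of each gene were taken from RefSeq (build GRCm38.p6) and searched on both strands; a match of one motif cannot overlap a match of the other. CAGCTG occurred in 9 of 14 muscle fibre genes with an entry, in 3 of 14 adipocyte genes and in 14.3% of the 8812 genes in both tables with an entry. TTGCNNAA occurred in 4 of 14 adipocyte genes, in 4 of 14 muscle fibre genes and in 9.0% of all. These are matches of letters only. Below, the motif is in capitals: CAGCTG in Ckm (chr7:19410844-19411093, plus strand) and skeletal actin Acta1 (chr8:123894776-123895025, minus strand), and TTGCNNAA in the lipid droplet coat gene perilipin 1, Plin1 (chr7:79732777-79733026, minus strand), and Lep (chr6:29059971-29060220, plus strand).
Ckm: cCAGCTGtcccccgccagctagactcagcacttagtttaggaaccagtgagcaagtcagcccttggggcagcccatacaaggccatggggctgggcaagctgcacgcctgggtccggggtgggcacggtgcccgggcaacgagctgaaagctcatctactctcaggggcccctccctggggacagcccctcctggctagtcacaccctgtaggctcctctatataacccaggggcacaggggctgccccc
Acta1: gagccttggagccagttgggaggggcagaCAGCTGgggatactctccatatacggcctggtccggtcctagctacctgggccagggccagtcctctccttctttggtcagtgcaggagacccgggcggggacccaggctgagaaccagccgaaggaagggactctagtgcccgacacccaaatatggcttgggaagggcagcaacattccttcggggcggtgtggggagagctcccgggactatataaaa
Plin1: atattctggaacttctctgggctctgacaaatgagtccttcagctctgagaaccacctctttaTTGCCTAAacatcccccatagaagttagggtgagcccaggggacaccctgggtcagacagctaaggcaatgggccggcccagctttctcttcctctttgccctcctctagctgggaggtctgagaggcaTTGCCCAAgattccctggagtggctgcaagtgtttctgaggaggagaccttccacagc
Lep: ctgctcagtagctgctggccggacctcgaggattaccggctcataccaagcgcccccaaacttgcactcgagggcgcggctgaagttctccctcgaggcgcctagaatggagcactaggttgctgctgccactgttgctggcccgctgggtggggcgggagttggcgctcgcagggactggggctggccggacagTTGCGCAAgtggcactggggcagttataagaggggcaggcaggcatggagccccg

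Of the genes in both tables, 6847 were higher in WAT and 2108 were lower. The share depends on the scale. When the libraries were scaled by the median of ratios the median of all genes fell by 0.725, to −0.0015, with 4354 genes (39.3%) higher and 4286 (38.6%) lower, 77.9% in all. All 2108 genes lower in WAT kept their call on that scale, as did 4354 of the 6847 higher genes, and 365 genes turned direction. A gene named below as higher or lower was called that way on both scales unless stated otherwise. A 4-fold difference was passed by 17.1% of genes upwards in WAT and by 3.91% downwards, and a 10-fold one by 3.67% and 1.71%.

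Several of the genes furthest above muscle in WAT are known from fat storage or as fat hormones. Pck1, which makes the glycerol backbone of triglyceride in fasted fat cells, had 1631, 2289, 1685 and 3095 CPM in WAT, against 7.3, 5.4, 5.0 and 8.4 CPM in muscle. That is the largest difference among the genes higher in WAT (8.15 ± 0.15, adjusted p = 3.78e-09), and the groups did not overlap. Plin1 had 982, 1219, 1025 and 1057 CPM in WAT, against 5.4, 4.5, 2.1 and 4.0 CPM in muscle (7.79 ± 0.17, adjusted p = 6.16e-09). Cidec, which enlarges lipid droplets, had 1954, 2086, 1834 and 2324 CPM in WAT, against 13.5, 11.1, 4.8 and 9.3 CPM in muscle (7.66 ± 0.19, adjusted p = 1.4e-08). The rule for the 15 largest differences also named adipsin (Cfd, 7.52), a complement factor secreted by fat, resistin (Retn, 7.03), the desaturase Scd1 (7.43), the lipid droplet lectin Lgals12 (7.47), the protein kinase A subunit Prkar2b (7.16), the glycosyltransferase B3galt2 (7.28), the interferon-induced Ifi27l2a (7.18), Tmem45b (7.10), the phosphatase Acp5 (7.08), which is known from osteoclasts and macrophages, and the imprinted genes Nnat (7.50) and Mest (7.34; 23.1% of its exon bases overlap another gene). Scd1 alone had 66836, 41250.3, 51101 and 54984 CPM in WAT, against 458, 258, 147 and 502 CPM in muscle, the largest value of any gene named here in WAT.

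Many of the genes furthest below belong to the contractile apparatus and its calcium supply. Titin (Ttn), the molecular spring of the sarcomere, had 8.7, 7.2, 9.0 and 27.7 CPM in WAT, against 34337, 34034, 29975 and 35598 CPM in muscle (−11.41 ± 0.27, adjusted p = 2e-08). The calcium pump of fast fibres, Atp2a1, had 8.4, 7.5, 10.9 and 22.6 CPM in WAT, against 30143, 34683, 22321 and 29905 CPM in muscle (−11.21 ± 0.27, adjusted p = 1.97e-08; 21.9% of its exon bases overlap another gene). Myh4 differed by −11.34 and Ckm by −10.77. The rule also named Xirp2 (−10.82), the troponins Tnnt3 (−10.79), Tnni2 (−10.30) and Tnnc2 (−10.41, with 74% of its exon bases shared with another gene), myosin-binding protein Mybpc2 (−10.56), the giant protein nebulin (Neb, −10.11), the calcium release channel Ryr1 (−10.19), its anchor triadin (Trdn, −10.09) and the glycogen-targeting subunit Ppp1r3a (−10.30).

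A gene enters a tissue's table only with at least 1 CPM in 4 or more of its libraries, and 1598 genes were in the WAT table alone and 502 in the muscle table alone. They have no value in the other tissue and no test. WAT-only genes were mostly scarce, with a median of 2.48 CPM and 156 of them at 10 CPM or more. Among the 10 most abundant were the succinate receptor Sucnr1 (314, 231, 273 and 171 CPM), the beta-3 adrenergic receptor Adrb3 (47.8, 109, 84.9 and 298 CPM), which starts lipolysis in rodent fat, the FGF21 co-receptor Klb (119, 111, 122 and 157 CPM), the short-chain fatty acid receptor Ffar2 (138, 203, 108 and 328 CPM) and the amino acid transporter Slc7a10 (169, 197, 175 and 195 CPM). Adrb3 was highest in W3. Muscle-only genes held 3.47% to 4.42% of the muscle CPM, against 0.904% to 0.993% for WAT-only genes in WAT, and 197 of them reached 10 CPM. They included the calcium channel Cacna1s that senses voltage in muscle (1558, 1417, 1684 and 1401 CPM), the ubiquitin ligase Trim63 that marks muscle proteins for breakdown (843, 1093, 1077 and 1428 CPM), the Z-disc proteins Myoz1 (1167, 1708, 827 and 1445 CPM) and Actn2 (1231, 236, 2290.2 and 717 CPM), and the oxidative fast myosin Myh2 (2003, 301, 3159 and 1294 CPM).

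The muscle libraries differed among themselves in transcripts known from fibre types. Myh2 and Actn2 were lowest in W12 and highest in W15, and Myh4 was the other way round. Oxygen-storing myoglobin (Mb) had 2406, 474, 4122 and 1986 CPM in muscle, and slow myosin (Myh7), listed in the muscle table only, had 641, 67.1, 1046 and 618 CPM. Both were highest in W15 and lowest in W12. 31.9% of the exon bases of Mb overlap another gene. The summed adipocyte, fatty acid oxidation, TCA cycle and respiratory chain lists were also lowest in the muscle of W12, the adipocyte list at 3971 CPM, against up to 10222 CPM in the other animals. Members of the adipocyte list did not all follow its sum. Lpl was lowest in the muscle of W12, but Adipoq, Plin1 and Cidec were lowest in that of W15 (5.2, 2.1 and 4.8 CPM). The part that fibre type plays in the tissue difference was not tested.

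The insulin pathway was expressed in both tissues, with different members leading in each. Of 40 genes of insulin signalling and GLUT4 traffic in both tables, 25 were higher in WAT and 7 lower, a split of 12 and 15 after scaling, with a median difference of 0.87. The shares are close to those of all genes. GLUT4 itself (Slc2a4) had 187, 211, 183 and 198 CPM in WAT, against 589.9, 568, 787 and 585 CPM in muscle. Every muscle library stood above every WAT library, and the difference was −1.68 ± 0.14, adjusted p = 6.36e-06. The 2 proteins that hold GLUT4 vesicles back until Akt or AMPK phosphorylates them were both lower in WAT (Tbc1d1 −2.27 and Tbc1d4 −0.92). Hexokinase 2 (Hk2), which traps the glucose that enters, had 112, 136, 142 and 97.1 CPM in WAT, against 443, 423, 553 and 475 CPM in muscle (−1.96 ± 0.13, adjusted p = 1.69e-06). The vesicle GTPase Rab10 was lower too (−1.49). The receptor gene Insr had 418, 389.9, 528 and 485 CPM in WAT, against 364, 246, 394 and 289 CPM in muscle, values that overlapped between tissues; the difference of 0.51 ± 0.14, adjusted p = 0.0072, was −0.28 after scaling and not past the test there (adjusted p = 0.0699). Receptor substrate 1 (Irs1, 30.9% of its exon bases shared with another gene) was lower in WAT (−0.78 ± 0.14, adjusted p = 0.000921), and Irs3, a substrate known from rodent fat, was in the WAT table only (44.1, 47.9, 33.2 and 32.3 CPM).

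Several steps below the receptor were higher in WAT. Phosphodiesterase 3B (Pde3b), through which insulin lowers cyclic AMP and stops lipolysis, had 423, 568, 561 and 759 CPM in WAT, against 5.1, 7.3, 4.8 and 8.4 CPM in muscle (6.29 ± 0.12, adjusted p = 4.06e-09). Trarg1, a regulator of GLUT4 traffic in adipocytes, had 961, 1093, 879 and 981 CPM in WAT, against 8.5, 7.1, 5.1 and 6.1 CPM in muscle (7.01 ± 0.12, adjusted p = 2.46e-09). Both were below 10 CPM in every muscle library. The PI3-kinase subunits Pik3cb (2.61) and Pik3r1 (1.48), the kinase Akt2 (1.16), the sorting receptor Sort1 (1.75) and the transcription factor Foxo1 (1.73), which insulin expels from the nucleus, were higher in WAT on both scales. Gsk3b, the kinase that restrains glycogen synthase, was lower (−0.86), a call that was lost when the fit was made over sham and RYGB mice together (adjusted p = 0.0821).

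**Figure D2:**
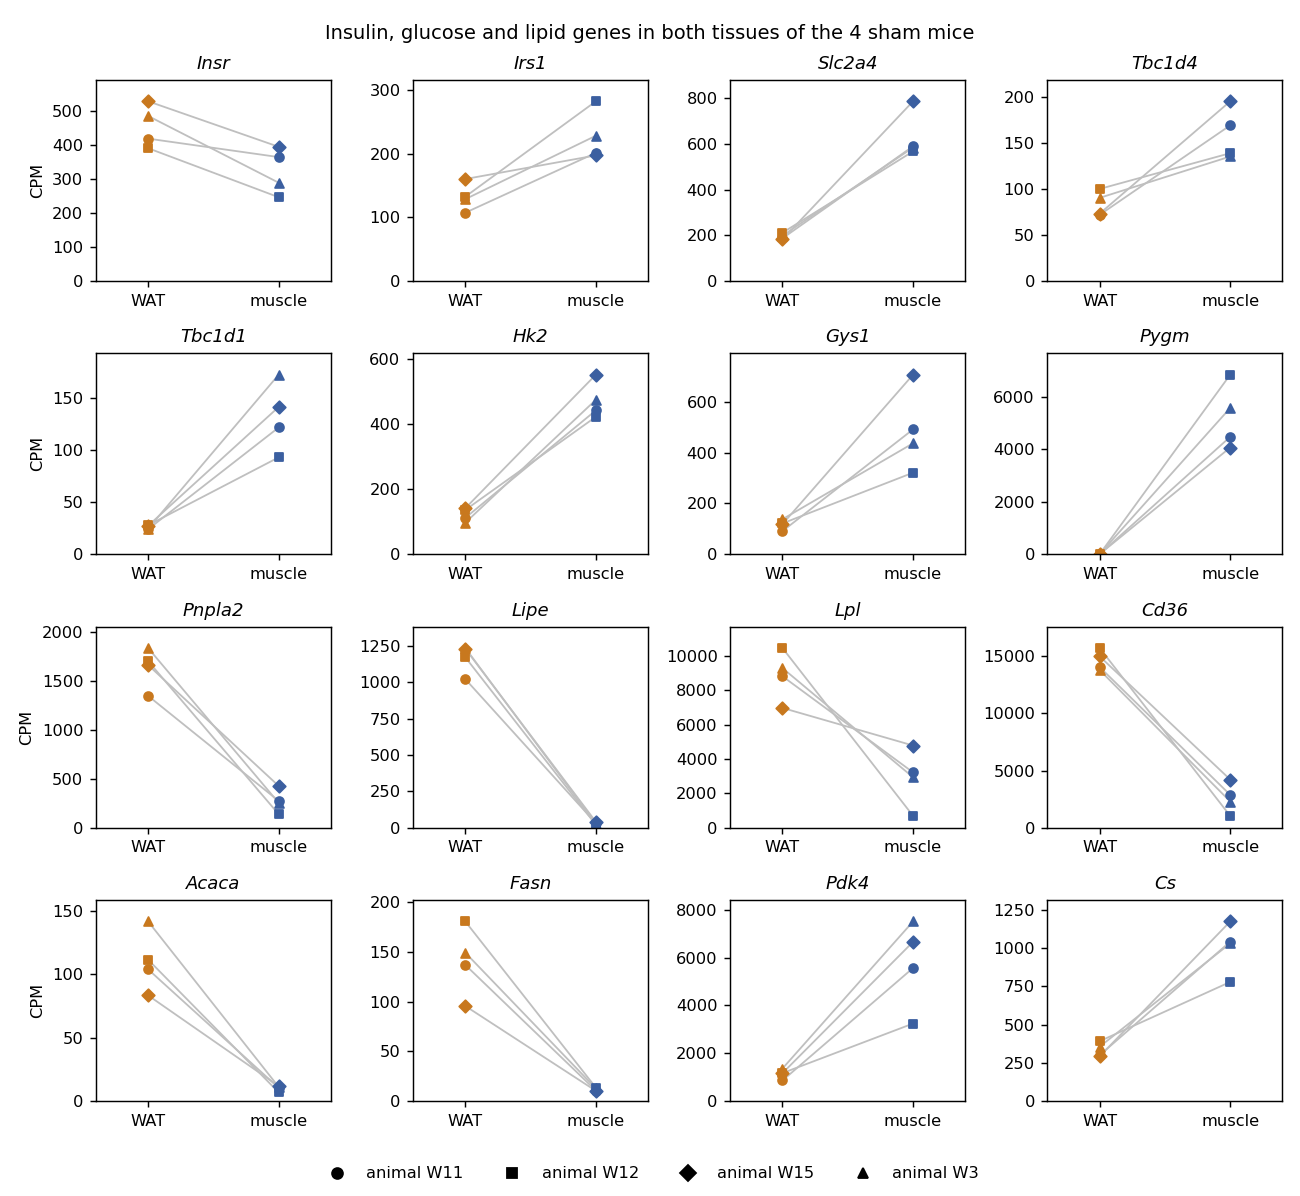
CPM of 16 genes of insulin action, glucose use and fat handling in both tissues of the 4 sham mice, WAT left of muscle; each marker shape is 1 animal and a line joins its tissues. Slc2a4, Hk2, Tbc1d1 and Pygm are lower in WAT in all 4 animals, Pnpla2, Lipe, Cd36, Acaca and Fasn are higher in all 4, and Lpl and Cd36 are lowest in the muscle of W12.

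Glycolytic genes differed in both directions. Of 20 in both tables, 12 were lower and 7 higher (13 and 5 after scaling), with a median of −2.01. Phosphofructokinase, the control point of glycolysis, had its muscle form Pfkm at 22.6, 23.9, 20.4 and 20.9 CPM in WAT, against 3579, 3803, 3732 and 4128 CPM in muscle (−7.38 ± 0.12, adjusted p = 2.03e-09). Its liver form Pfkl (2.88) and platelet form Pfkp (3.53) were higher in WAT. Aldolase A (Aldoa, −4.59), enolase 3 (Eno3, −7.32), pyruvate kinase (Pkm, −3.76) and lactate dehydrogenase A (Ldha, −2.05) were lower in WAT, and hexokinase 1 (Hk1, 1.96) was higher. Gapdh and Pgk1, which have many near-identical pseudogene copies, are counted in the list but their levels are uncertain.

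Glycogen genes were lower in WAT in most cases, with 15 of 22 lower in WAT, 7 higher and a median of −2.31; the counts were the same after scaling. Muscle glycogen phosphorylase (Pygm), which releases glucose 1-phosphate from glycogen, had 4.8, 6.2, 7.2 and 11.4 CPM in WAT, against 4479.7, 6848, 4071 and 5581 CPM in muscle (−9.31 ± 0.19, adjusted p = 5.46e-09). The liver form Pygl had 111, 119.8, 106 and 123 CPM in WAT, against 3.2, 2.2, 1.0 and 2.8 CPM in muscle (5.19 ± 0.17, adjusted p = 4.63e-08). The order of these forms was thus opposite in WAT and muscle. Glycogen synthase 1 (Gys1) had 91.2, 122, 119 and 138 CPM in WAT, against 492, 321, 707 and 437 CPM in muscle (−2.01 ± 0.20, adjusted p = 2.48e-05), and the primer protein Gyg (−2.77) and Ugp2, which makes UDP-glucose (−3.66), were lower as well. Among regulators, the phosphorylase kinase subunit Phka1 was lower (−5.45) and its relative Phka2 higher (4.31), and the phosphatase targeting subunits split into Ppp1r3a and Ppp1r3c (−3.07), lower in WAT, and Ppp1r3b (2.85), higher.

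Lipolysis and lipid droplet genes were higher in WAT in 21 of 24 cases and lower in 1 (17 and 2 after scaling), with a median of 3.69. The first enzyme of triglyceride breakdown, ATGL (Pnpla2), had 1349.6, 1705, 1665 and 1839 CPM in WAT, against 274, 138, 427 and 254 CPM in muscle (2.68 ± 0.26, adjusted p = 2.19e-05). Hormone-sensitive lipase (Lipe), the second enzyme, had 1021, 1171, 1229.7 and 1235 CPM in WAT, against 30.8, 19.7, 40.1 and 27.1 CPM in muscle (5.30 ± 0.16, adjusted p = 3.04e-08). Monoglyceride lipase (Mgll, 4.03), the ATGL activator Abhd5 (1.80) and the ATGL inhibitor G0s2 (5.01) were also higher, as was Aqp7 (4.31), the channel through which glycerol leaves fat cells. The muscle value of ATGL was highest in W15 and lowest in W12. Plin5, the droplet protein of oxidative tissue, did not pass the test (33.0 ± 6.30 CPM in WAT and 40.4 ± 22.2 CPM in muscle). The clearance receptor for natriuretic peptides, Npr3, had 3507, 2834, 3002 and 1059.6 CPM in WAT, against 89.5, 34.5, 131 and 80.1 CPM in muscle, and the signalling receptor Npr1 was higher as well (2.68).

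Of 18 genes of lipoprotein lipase and fatty acid uptake, 16 were higher in WAT and 2 lower, 11 and 2 after scaling. Lipoprotein lipase (Lpl), which frees fatty acids from circulating triglyceride, had 8817, 10461, 6974 and 9294 CPM in WAT, against 3221, 689, 4786 and 2936 CPM in muscle; the difference (1.90 ± 0.49, adjusted p = 0.00843) was not past the test after scaling (adjusted p = 0.0614). Its capillary anchor Gpihbp1 (3.17) and its fasting inhibitor Angptl4 (4.95) were higher in WAT. The fatty acid transporter Cd36 had 14049.6, 15715, 14989 and 13792 CPM in WAT, against 2869.6, 1029, 4208 and 2286 CPM in muscle (2.66 ± 0.33, adjusted p = 7.2e-05). The 2 genes lower in WAT were the heart-type fatty acid binding protein Fabp3 (0.2, 0.3, 2.7 and 0.6 CPM in WAT, against 475, 93.6, 667 and 306 CPM in muscle; −7.48) and the VLDL receptor Vldlr (253, 221, 196 and 182 CPM in WAT, against 1007, 1215, 809 and 1544 CPM in muscle; −2.39). Fabp3 was at or below 2.7 CPM in every WAT library, where adipocyte Fabp4 had 10579, 13021, 9803 and 11451 CPM.

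Lipogenesis and triglyceride synthesis had 27 of 34 genes higher in WAT and 5 lower (24 and 7 after scaling), with a median of 2.67. Fatty acid synthase (Fasn) had 137, 181, 95.6 and 149 CPM in WAT, against 10.6, 13.5, 10.3 and 12.7 CPM in muscle (3.44 ± 0.13, adjusted p = 7.7e-08). The 2 forms of acetyl-CoA carboxylase differed in opposite directions: Acaca, which makes malonyl-CoA for synthesis, was higher in WAT (3.33), and Acacb, whose malonyl-CoA holds back fatty acid entry into mitochondria, was lower (−0.75), with overlap between the tissues and no call without W11 (adjusted p = 0.0984) or without W15 (adjusted p = 0.0924). ATP citrate lyase (Acly, 2.45), G6pdx, which supplies NADPH (5.35), and the acyltransferases Agpat2 (4.02), Dgat1 (3.79) and Dgat2 (2.81) were higher. Gpam, the mitochondrial enzyme of the first acylation, was lower in WAT (91.1, 88.3, 121 and 102 CPM in WAT, against 452, 206, 481 and 351 CPM in muscle; −1.82), and so was the phosphatidate phosphatase Lpin1 (−0.89).

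Mitochondrial genes were mostly lower in WAT. Of 33 genes of pyruvate dehydrogenase and the TCA cycle, 28 were lower and 2 higher (31 and 2 after scaling, median −1.40), and of 52 respiratory chain and ATP synthase genes 44 were lower and 2 higher (49 and 2 after scaling, median −1.34). Citrate synthase (Cs) had 300.1, 392, 293 and 356 CPM in WAT, against 1043, 779, 1175 and 1031 CPM in muscle (−1.58 ± 0.18, adjusted p = 3.87e-05). Pyruvate dehydrogenase kinase 4 (Pdk4), which shuts the entry of pyruvate during a fast, had 860.4, 1169, 1167 and 1361 CPM in WAT, against 5565, 3242, 6659 and 7511 CPM in muscle (−2.28 ± 0.23, adjusted p = 1.69e-05). The tissues did not overlap for either gene. The kinase Pdk3 (2.23) and pyruvate carboxylase (Pcx), which feeds oxaloacetate into the cycle, were the 2 members higher in WAT. Pcx had 302, 364, 235 and 473 CPM in WAT, against 48.2, 81.3, 52.6 and 69.2 CPM in muscle (2.42 ± 0.14, adjusted p = 6.78e-07). In the respiratory chain the 2 members higher in WAT were Cox6a1 (4.03) and Cox8a (2.82), the forms of cytochrome oxidase subunits made in most tissues, while the muscle forms Cox7a1 (−5.36) and Cox8b (−3.73) were lower.

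Fatty acid oxidation had 11 of 26 genes lower in WAT, 5 higher and a median of −0.28. After scaling 17 were lower and 4 higher. Over all genes 19% were lower and 61.7% higher (38.6% and 39.3% after scaling). The trifunctional protein subunit Hadha had 188, 212, 163 and 240.4 CPM in WAT, against 720.3, 294, 1159.9 and 582 CPM in muscle (−1.63 ± 0.34, adjusted p = 0.003), with the lowest muscle value in W12. Very-long-chain dehydrogenase (Acadvl, 42.9% of its exon bases shared with another gene, −1.47) and the thioesterase Acot2 (−2.60) were lower in WAT. The medium-chain dehydrogenase Acadm had 912 ± 109.5 CPM in WAT and 986 ± 362 CPM in muscle and did not pass the test, but was lower after scaling (adjusted p = 0.021). The liver form of the entry enzyme, Cpt1a, was higher in WAT (2.67 ± 0.14, adjusted p = 4.25e-07). Its muscle form Cpt1b was in the muscle table only, at 3.3, 1.2, 3.2 and 2.3 CPM; reads of this gene are shared with an overlapping neighbour, and the sources used here do not say how such reads were counted. Among uncoupling proteins Ucp2 was higher in WAT (2.97) and Ucp3 lower (−1.57). Brown-fat Ucp1 was in the WAT table only, with 0.6, 1.4, 35.0 and 1.3 CPM, and only W15 was above 2 CPM.

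**Figure D3:**
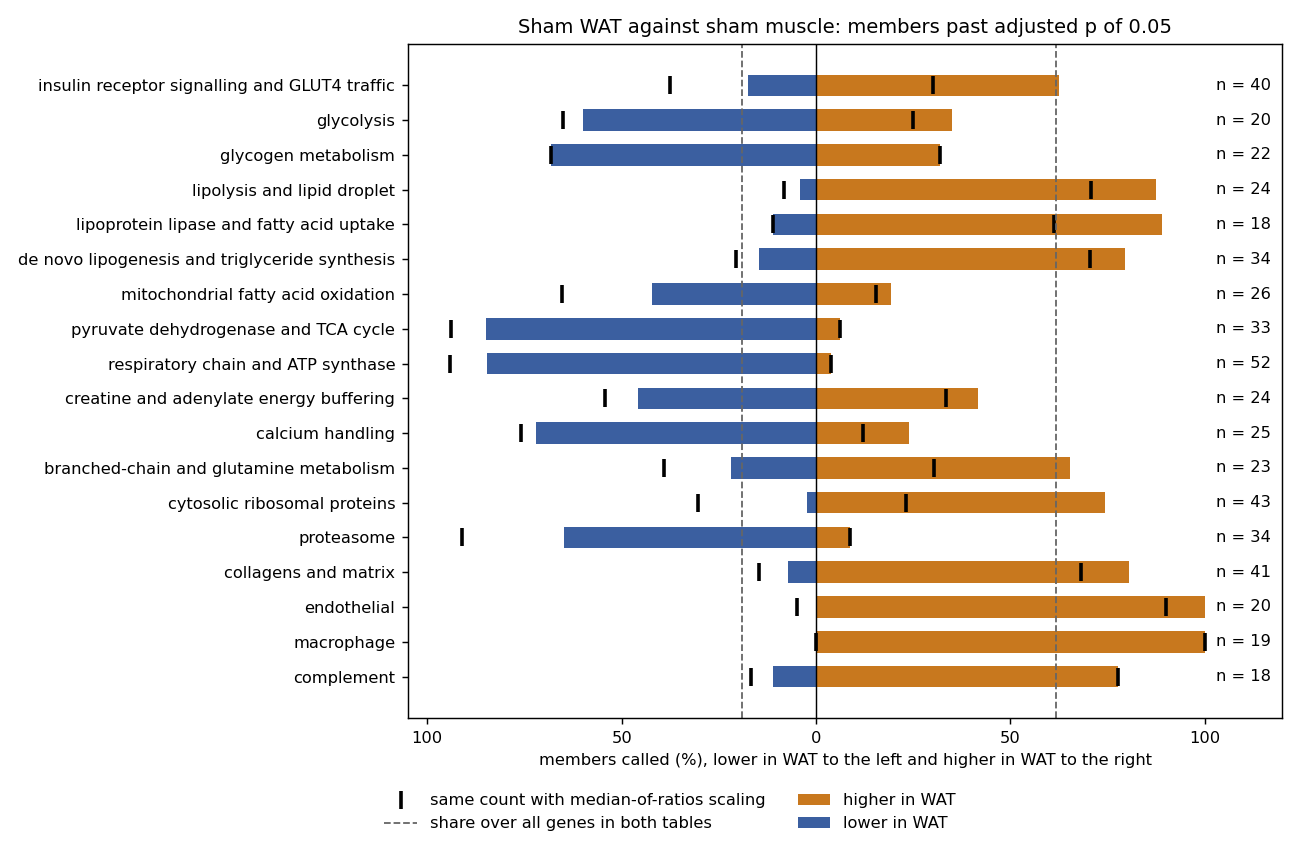
Share of the members of 18 gene lists called lower (left, blue) or higher (right, orange) in sham WAT than in sham muscle, in percent of the members in both tables (n at the right). Black ticks give the same shares after median-of-ratios scaling and dashed lines the shares over all genes, 19% lower and 61.7% higher; mitochondrial, glycogen, calcium and proteasome lists lie to the left, and macrophage, endothelial and lipid lists to the right.

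Energy buffering and calcium handling had members higher in each tissue. Of 24 energy buffering genes 11 were lower in WAT and 10 higher (13 and 8 after scaling). Mitochondrial creatine kinase (Ckmt2) had 1.2, 0.6, 1.4 and 3.2 CPM in WAT, against 1713, 701, 3387 and 1791 CPM in muscle (−9.40 ± 0.28, adjusted p = 1.15e-07), and adenylate kinase 1 (Ak1) was lower (−6.39). The AMPK subunits Prkaa2 (−5.07), Prkab2 (−4.31) and Prkag3 (−3.05) were lower in WAT, and Prkaa1 (1.80) and Prkab1 (1.28) were higher. Of 25 calcium genes 18 were lower and 6 higher (19 and 3 after scaling), with a median of −4.47: calsequestrin (Casq1, −8.27) and sarcalumenin (Srl, −8.60) were among the lower, and the pump Atp2a3 (3.48) and the inositol trisphosphate receptor Itpr2 (2.18) among the higher.

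Pairs of related genes were set side by side per kilobase of exon, with 0.01 CPM per kilobase added, so that levels of different genes could be compared within a library. Of 41 pairs, 33 had both genes in both tables, and in 14 of these the first gene was above the second in all 4 WAT libraries and the second above the first in all 4 muscle libraries; no pair switched in the other direction. Without the length scaling 17 pairs switched, 12 of the 14 among them; Fabp4 and Fabp3, and Cox7a2 and Cox7a1, did not. For glycogen phosphorylase the ratio of Pygl to Pygm was 2.92 ± 0.47 in WAT and −12.30 ± 0.66 in muscle on the log2 scale (SD over 4 libraries). For the AMPK catalytic subunit, Prkaa1 over Prkaa2 was 3.09 ± 0.16 in WAT and −3.84 ± 0.28 in muscle. For fatty acid binding proteins, Fabp4 over Fabp3 was 11.81 ± 1.74 in WAT and −2.98 ± 1.02 in muscle. For the subunits of phosphorylase kinase, Phka2 over Phka1 was 1.98 ± 0.17 in WAT and −8.00 ± 0.88 in muscle. The droplet proteins Plin1 and Plin5 had a log2 ratio of 3.88 ± 0.23 in WAT and −4.34 ± 1.39 in muscle. In 13 pairs the second gene was above in all 8 libraries. Slc2a4 stood above the general transporter Slc2a1 in both tissues, the log2 ratio of Slc2a1 to Slc2a4 being −2.60 ± 0.25 in WAT and −5.15 ± 0.79 in muscle. Hk2 likewise stood above Hk1, and Acacb above Acaca, in all 8 libraries. Pfkm stood above Pfkl and Pfkp per kilobase in all 8 libraries, but on CPM without the length scaling Pfkl and Pfkp were above Pfkm in all 4 WAT libraries. The pairs were chosen as muscle forms against their relatives, so the direction of the switches follows from the choice.

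**Figure D4:**
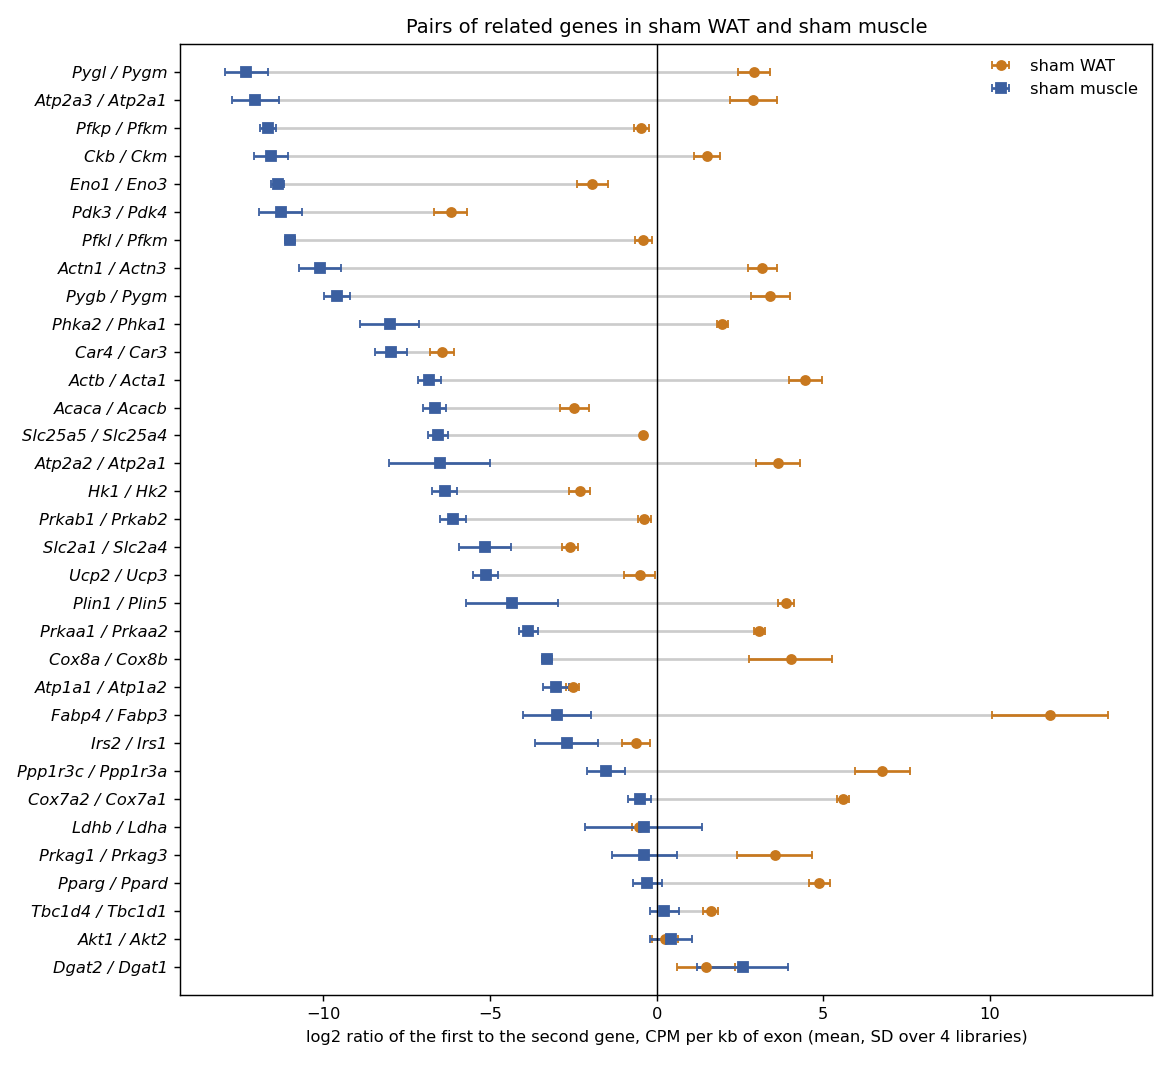
Log2 ratio of the first to the second gene of 33 related pairs, from CPM per kilobase of exon, in sham WAT (circles) and sham muscle (squares); points are means and bars SDs over 4 libraries. The 14 pairs with circles right of 0 and squares left of 0 in every library change which gene is the more abundant, among them Pygl and Pygm, Atp2a3 and Atp2a1, and Fabp4 and Fabp3, the last of which does not switch on CPM without the length scaling.

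Of 25 adipogenic and metabolic factors 13 were higher in WAT and 6 lower, 10 and 12 after scaling, not far from the shares over all genes (61.7% and 19%, 39.3% and 38.6% after scaling), while 16 of 17 myogenic factors were lower on both scales. The master regulators of adipocytes were higher: Cebpa (387, 596, 465 and 552 CPM in WAT, against 5.3, 5.9, 2.2 and 5.5 CPM in muscle; 6.49), Pparg (5.10) and Ebf1 (3.43), along with the lipogenic factor Srebf1 (2.27). The mitochondrial coactivator Ppargc1a had 26.2, 23.4, 27.6 and 26.8 CPM in WAT, against 93.2, 73.0, 114 and 94.7 CPM in muscle (−1.80 ± 0.11, adjusted p = 1.09e-06), and its partner Esrrg was lower (−3.26). Among muscle factors Mef2c (−4.50), Six4 (−4.01) and Tbx15 (−4.16) were lower in WAT. Myod1 and Myf6 were in the muscle table only, at 10.2, 10.8, 3.9 and 6.0 CPM for Myod1 and 233, 340.2, 208 and 376 CPM for Myf6.

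Among genes known to respond to fasting and muscle wasting, 12 of 29 were higher in WAT and 11 lower, 8 and 17 after scaling. Over all genes 61.7% were higher and 19% lower (39.3% and 38.6% after scaling), so lower members were more frequent in this list. The ubiquitin ligase atrogin-1 (Fbxo32) had 40.5, 47.8, 50.6 and 62.1 CPM in WAT, against 2552, 2550.2, 2637 and 3458 CPM in muscle (−5.78 ± 0.12, adjusted p = 5.41e-09), with W3 highest in muscle, as for Trim63. Asparagine synthetase (Asns), a target of the amino acid response, had 91.7, 108, 119 and 173 CPM in WAT, against 2.0, 2.0, 1.9 and 3.1 CPM in muscle (5.23 ± 0.13, adjusted p = 1.09e-08), and the mTORC1 inhibitor Ddit4 was higher in WAT (2.25). The animals were killed at 1 time of day, so a difference in phase and a difference in level cannot be told apart for clock genes. Of 20 clock genes, 6 were higher in WAT and 7 lower, 3 and 14 after scaling, again with more lower members than over all genes. Per2 had 53.9, 66.1, 90.2 and 77.6 CPM in WAT, against 15.4, 15.1, 24.2 and 13.8 CPM in muscle (2.02 ± 0.14, adjusted p = 1.66e-06), and Per3 was also higher (2.36). Rora (−1.81), Bhlhe40 (−2.80) and Nfil3 (−1.96) were lower. Arntl, the core activator, had 22.6 ± 8.65 CPM in WAT and 28.1 ± 5.66 CPM in muscle and did not pass the test, but was lower after scaling (adjusted p = 0.000211).

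Of 18 secreted adipose factors 14 were higher in WAT and 2 lower (14 and 3 after scaling, median 4.66). Of 11 factors named for secretion by muscle, 6 were higher in WAT and 0 lower (6 and 1 after scaling). A further 3 of these factors were in the muscle table only and 1 in the WAT table only. Over all genes 61.7% were higher and 19% lower (39.3% and 38.6% after scaling), so 6 of 11 is near the share on CPM. The growth factor Igf1 had 356, 330.1, 339 and 341 CPM in WAT, against 48.9, 42.4, 31.3 and 33.7 CPM in muscle (3.12 ± 0.13, adjusted p = 1.31e-07). Retinol-binding protein 4 (Rbp4) was higher by 5.59, apolipoprotein E (Apoe) by 5.30 and Vegfa, which draws in capillaries, by 1.83. Myostatin (Mstn), the inhibitor of muscle growth, and Ostn were in the muscle table only, Mstn at 87.2, 271, 72.4 and 166 CPM and Ostn at 80.4, 216, 66.0 and 82.8 CPM, both highest in W12. In the complement list 14 of 18 genes were higher in WAT and 2 lower (14 and 3 after scaling), with C4b at 614, 535, 859 and 561 CPM in WAT, against 26.7, 9.2, 9.8 and 11.6 CPM in muscle (5.50 ± 0.26, adjusted p = 6.55e-07).

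Markers of the other cell types of both tissues differed in direction between lists. Matrix genes were higher in 33 of 41 cases and lower in 3 (28 and 6 after scaling; the lower count was 1 without W11 and 5 without W12), with Sparc (4578, 4648, 3248 and 2117 CPM in WAT, against 235, 224, 188 and 162 CPM in muscle; 4.11), Col4a1 (3.00) and Col3a1 (2.57). All 20 endothelial genes were higher in WAT, 18 after scaling with 1 lower, for example Pecam1 (2.00) and Cldn5 (3.89). Over all genes 61.7% were higher, and 39.3% after scaling. All 19 macrophage genes were higher on both scales, with Mpeg1 at 156, 122, 146 and 176 CPM in WAT, against 11.5, 6.9, 11.4 and 7.6 CPM in muscle (3.88 ± 0.15, adjusted p = 1.02e-07), and so were the 5 MHC class II genes, with H2-Aa at 595, 552, 549 and 680.3 CPM in WAT, against 47.7, 29.2, 39.0 and 33.4 CPM in muscle (3.97 ± 0.14, adjusted p = 6.83e-08). Of the T and NK cell markers, 17 were in the WAT table only and 0 in both, and these summed to 41.9 to 62.7 CPM. The sodium channel Scn7a, listed with nerve markers, was higher (3.83). Of 12 smooth muscle and pericyte genes 5 were higher in WAT and 2 lower (5 and 5 after scaling). Of 4 lymphatic endothelial genes 1 was higher and 0 lower (1 and 1 after scaling), of 4 B cell genes 1 was higher and 0 lower (0 and 1 after scaling), and of 4 genes of the neuromuscular junction 1 was higher and 3 lower. All 4 tendon genes in both tables were lower in WAT, among them Thbs4 (−6.49) and Fmod (−4.84). Muscle values of both were highest in W12. The 4 satellite cell genes in both tables were all higher in WAT on both scales, and 6 more were in the muscle table only. Of 16 preadipocyte and fibroblast genes 13 were higher in WAT and 2 lower (10 and 3 after scaling). Immunoglobulin kappa (Igkc) had 82.5 ± 98.0 CPM in WAT and 23.7 ± 26.4 CPM in muscle, overlapped between tissues and passed the test only without W11 (adjusted p = 0.0351).

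Of 34 proteasome genes 22 were lower in WAT and 3 higher (31 and 3 after scaling), with a median of −0.56. The 3 higher ones were the subunits of the immunoproteasome, which replace the standard catalytic subunits in immune cells and after interferon: Psmb8 (38.0, 45.4, 35.3 and 49.4 CPM in WAT, against 3.4, 2.9, 3.9 and 1.7 CPM in muscle; 3.46), Psmb9 (3.15) and Psmb10 (2.06). Regulatory subunits Psmd1 (−1.28) and Psmd11 (−1.31) were lower. Of 43 ribosomal protein genes 32 were higher and 1 lower, but 10 and 13 after scaling; many have pseudogene copies, so their levels are uncertain. The ribosomal protein Rpl3l, known from muscle, was in the muscle table only (162, 169, 167 and 160.4 CPM), and Rpl3 was higher in WAT (2.60). Of 23 genes of branched-chain and glutamine metabolism 15 were higher and 5 lower, 7 and 9 after scaling, shares near those of all genes on each scale (61.7% and 19%, 39.3% and 38.6% after scaling). The transaminase Got1, which carries reducing power into mitochondria, was lower in WAT (10.5, 8.6, 9.5 and 12.9 CPM in WAT, against 362, 139, 511 and 298 CPM in muscle; −4.72), and glutamine synthetase (Glul, 1.51) and Bckdhb, a subunit of the enzyme that commits branched-chain amino acids to breakdown (2.25), were higher.

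A few genes were abundant in both tissues. By the highest minimum over the 8 libraries these included carbonic anhydrase 3 (Car3, which is known from both fat and muscle), the translation factors Eif4g2 and Eef2, Cd36, the ATP synthase subunit Atp5b, the ubiquitin ligase Nedd4, decorin (Dcn), Txnip and dystonin (Dst). Car3 had 17595, 20125, 10340.4 and 20768 CPM in WAT, against 3720.2, 2947, 4945 and 5492 CPM in muscle (2.00 ± 0.29, adjusted p = 0.000189). Eif4g2 had 1395 ± 92.8 CPM in WAT and 1706 ± 140 CPM in muscle (SD, n = 4 each) and did not pass the test, but was lower in WAT after scaling (adjusted p = 0.000349). Txnip, which limits glucose uptake, was abundant in both and higher in WAT (3168, 3909, 3772 and 3961 CPM in WAT, against 1013, 927, 1033 and 1027 CPM in muscle; 1.88 ± 0.16, adjusted p = 5.67e-06).

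The tissue difference was then measured in the RYGB mice. Of all genes tested, 45.1% were higher in RYGB WAT than in RYGB muscle and 13.8% lower, 58.9% in all. Of the 8955 genes called in sham mice, 5805 were called the same way in RYGB mice and 106 the opposite way. All 18 adipocyte genes were again higher and all 19 muscle fibre genes again lower in WAT. Slc2a4 differed by −1.08 in RYGB mice and −1.68 in sham mice, and Pygm by −9.28 in RYGB mice and −9.31 in sham mice. The term for a change of the tissue difference with surgery was not past the test for either (adjusted p = 0.303 for Slc2a4 and 0.969 for Pygm). In simulated data this term was found for 16 of 100 genes with a log2 change of 1, and for 72 of 100 with a change of 2. Far fewer genes were changed there than the 1424 called in the data. The adjusted p depends on that share, so the simulated rates need not hold for the data. A missing call therefore does not show an equal difference.

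A tissue by surgery term, the tissue difference in RYGB mice minus that in sham mice, passed the test for 12.8% of genes, 4.48% with a higher and 8.36% with a lower difference in RYGB mice (5.46% and 6.42% after scaling, 11.9% in all). It was past the test and positive for 42 of 52 respiratory chain genes, 23 of 33 genes of pyruvate dehydrogenase and the TCA cycle, 15 of 26 genes of fatty acid oxidation and 15 of 34 genes of lipogenesis, the same counts after scaling except for 16 in fatty acid oxidation. The median tissue difference of the respiratory genes was 0.66 in RYGB mice and −1.34 in sham mice, and that of fatty acid oxidation 1.28 in RYGB mice and −0.28 in sham mice. The summed marker lists of WAT did not overlap between surgeries for some cell types. The preadipocyte and fibroblast list summed to 4629.6 to 5471 CPM in RYGB WAT, against 11909 to 14274 CPM in sham WAT. Most of its members did not share a called change: of 16 in both tables, the term was past the test and negative for 4 and positive for 1 (3 and 1 after scaling). The adipocyte list summed to 68179 to 119055 CPM in RYGB WAT, against 43295 to 60640.1 CPM in sham WAT. Its members did not all rise: mean Plin1 was 852 CPM in RYGB WAT and 1071 CPM in sham WAT, and mean Adipoq 2320 and 1839 CPM. Of the 18 adipocyte genes in both tables, the term was past the test and positive for 2 and negative for 2. The part of these lists in the result was not tested. In RYGB mice 14 of the 52 respiratory genes were higher in WAT and 1 lower. Citrate synthase (Cs) had 1400.1, 767, 709.6 and 1206 CPM in WAT of R1, R2, R3 and R4, against 944, 701, 1118 and 1218 CPM in their muscle, values that overlapped, unlike those of the sham mice (difference of the differences 1.59 ± 0.35, adjusted p = 0.0163). Fasn had 18833, 6124, 3844 and 9723 CPM in RYGB WAT, in the same order, against 137, 181, 95.6 and 149 CPM in sham WAT, and its tissue difference was 8.22 in RYGB mice and 3.44 in sham mice (difference of the differences 4.78 ± 0.35, adjusted p = 7.16e-05). The other 4 genes with the smallest adjusted p in that direction were Tkt (3.05), Slc25a1 (3.03), Thrsp (3.77) and Tst (4.26), given as the difference of the differences.

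In the other direction the smallest adjusted p was that of Sfrp5, a Wnt inhibitor secreted by fat. It had 2.7, 5.3, 3.7 and 3.9 CPM in WAT of R1 to R4, against 356, 258, 407 and 101 CPM in sham WAT, so that the tissue difference was −0.94 in RYGB mice and 5.30 in sham mice (difference of the differences −6.24 ± 0.38, adjusted p = 1.83e-05). The next included Adap2 (−3.49), Cdon (−3.11) and Trim16 (−3.41). Mest, among the 15 largest differences in sham mice, had 7.8, 1.8, 41.6 and 45.0 CPM in RYGB WAT, against 2296, 1209, 2445 and 705 CPM in sham WAT, and its tissue difference of 1.03 in RYGB mice did not pass the test, against 7.34 in sham mice. For Peg3, another imprinted gene, the tissue difference was 2.07 in RYGB mice and 6.25 in sham mice (difference of the differences −4.18 ± 0.70, adjusted p = 0.00524). Of 10 imprinted growth genes, most of which are silenced after birth in many tissues, 8 were higher in sham WAT and 0 lower (6 and 2 after scaling), and the term was past the test and negative for 5, also after scaling. Of 41 matrix genes the term was past the test and negative for 14, 8 after scaling. The count of 1424 genes for this term moved by over 1.5 times without any 1 of the 8 animals: it was 3641 without R3, between 517 and 672 without W11, W12, W15 or W3, and 712 without R1, 908 without R2 and 868 without R4. In WAT, R4 stood apart from the other RYGB mice in some marker lists: the thermogenic adipocyte list summed to 6103 CPM in R4, against 1191 to 2123 CPM in R1 to R3. The same thermogenic list summed to 3435 to 7779 CPM in sham muscle and 1043 to 1583 CPM in sham WAT. Its sum thus does not mark thermogenic adipocytes alone. The T and NK cell list summed to 527 CPM in R4 and 17.7 to 83.3 CPM in R1 to R3, and the B cell list to 1105 CPM in R4 and 143 to 422 CPM in R1 to R3. The muscle fibre list in WAT of R4 was at 205 CPM, inside the sham range, and the highest was R2 at 463 CPM. In muscle, R2 stood apart from R1, R3 and R4. Its fasting and wasting list summed to 34317 CPM, against 5936 to 9812 CPM, and its clock list to 3607 CPM, against 1527 to 1969 CPM.

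**Figure D5:**
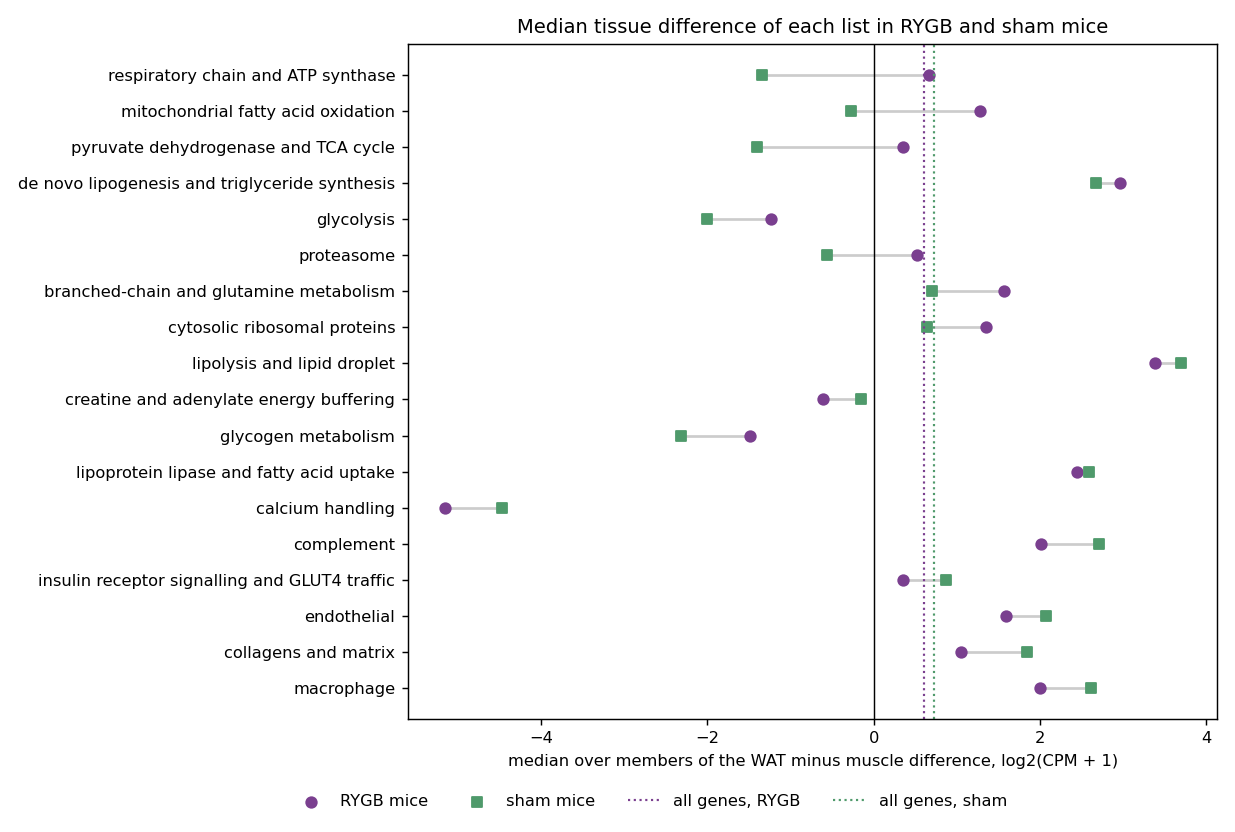
Median over the members of 18 gene lists of the WAT minus muscle difference of log2(CPM + 1) in RYGB mice (circles) and sham mice (squares), ordered by the median of the members' changes; dotted lines are the medians over all genes, 0.61 in RYGB and 0.72 in sham mice. Respiratory chain genes sit at 0.66 in RYGB mice and at −1.34 in sham mice, and the macrophage and matrix lists lie lower in RYGB mice.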

How the data were processed

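RNA sequencing libraries of 4 sham WAT and 4 sham gastrocnemius samples were compared, with those of 4 RYGB mice as a further set; 1 more sham WAT library, of an animal without a muscle library, was left out. The deposited tables, 1 per tissue, hold CPM values made by the authors from reads counted with HTSeq (no version given) on GRCm38, per the submitters' processing notes; they are rounded to 1 decimal and, tested on the values, list genes with at least 1 CPM in 4 libraries. One read is worth less than the last decimal, so depth is unknown and no count interval is given. The WAT table held 374 repeated identical lines, which were dropped. Of 13192 genes, 13160 matched the GENCODE annotation used for exon length and overlap. Abhd5, Ckm, Fabp3, Lipe, Pkm and Txnip also share part of their exon bases with another gene, and whether the counting used strand is not stated in the sources used. Libraries of the same animal were paired through the animal codes in the labels. Deviations from the tissue means correlated at −0.125 to 0.091 between libraries of the same animal. Between libraries of different animals they correlated at −0.135 to 0.082, so the pairing rests on the labels alone.

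Genes in both tables (11092) were fitted on log2(CPM + 1) with limma 3.58.1 (R 4.3.3, trended and robust empirical Bayes), tissue and animal as terms, and Benjamini-Hochberg adjustment over all of them. The change of the tissue difference with surgery was the interaction over 8 animals. The fits were tested on simulated data. Alternatives were median-of-ratios scaling, a pseudocount of 0.1, a mean of at least 5 CPM, no animal block, a fit over both surgeries and each animal left out. Fold changes on this scale understate the change of scarce genes. An exact sign-flip test over 4 animals cannot go below p = 0.125, so calls rest on limma. Genes were named where they were among the 15 largest called differences per direction with no overlap and at least 10 CPM, the 10 most abundant in both or in one table only, the 5 smallest adjusted p per direction for the interaction, or members of lists or pairs; some genes that this rule names are not reported here. The members and lists were chosen with earlier results of these data known.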

Additional observations from a re-analysis of the deposited data

Results flagged for a closer look

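The difference between WAT and muscle itself differed between RYGB and sham mice, by the tissue by surgery term, for 497 genes with a higher and 927 with a lower difference in RYGB mice. Those with the smallest adjusted p included Fasn (4.78), Tkt (3.05), Slc25a1 (3.03), Thrsp (3.77) and Tst (4.26) in the first direction and Sfrp5 (−6.24), Adap2 (−3.49), Cdon (−3.11) and Trim16 (−3.41) in the second, on the log2 scale.

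For some named genes 1 of the 4 libraries of a tissue lay far from the other 3, which chance alone brings about in about 1 in 20 groups of 4. In sham WAT, W3 was high for titin (Ttn, 27.7 CPM, against at most 9.0 CPM in the others), Tnni2 (6.1 CPM), Mb (4.3 CPM), Nfil3 (10.2 CPM) and Nedd4 (2324.2 CPM), and low for Tmem45b (763.3 CPM). W15 was high for Fabp3 (2.7 CPM) and low for Gapdh (13.7 CPM) and Pkm (61.0 CPM) in WAT, and W12 was high for Lgals12 (731.8 CPM). In sham muscle, W15 was high for Slc2a4 (787.1 CPM, against at most 589.9 CPM), Hk1 (13.8 CPM) and Per2 (24.2 CPM) and low for Cebpa (2.2 CPM). W11 was high for Acp5 (2.6 CPM), C4b (26.7 CPM), Col3a1 (239.7 CPM), Cox8b (53.4 CPM), Igkc (63.2 CPM) and Slc25a1 (3.1 CPM) in muscle. W12 was high for Akt2 (95.6 CPM) and Eno3 (4412.1 CPM), and W3 for Fbxo32 (3458.2 CPM) and Asns (3.1 CPM). Over all genes, W3 was the high library in WAT for 193 of 11092 genes, the largest such count of any sham library.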

How the results depend on the processing

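The scale moved the counts most: median-of-ratios scaling gave 4354 genes higher and 4286 lower in WAT, against 6847 and 2108 on CPM. Over the other alternatives (no animal block 6958 and 2155, pseudocount 0.1 6822 and 2099, mean of at least 5 CPM 6162 and 1981, both surgeries 6114 and 1696), and without each animal (6457 to 6808 and 1848 to 2073), both counts stayed within 1.5 times. Without the replicate block by animal the interaction count was 1903, against 1424 with it. That interaction count was 1304 with a pseudocount of 0.1, 1318 after scaling and 517 to 3641 without each animal (712 without R1, 908 without R2, 3641 without R3, 868 without R4, 517 without W11, 621 without W12, 527 without W15, 672 without W3); the cause was not tested. Of 179 genes named, 163 kept their direction and their side of the threshold in every fit. Scaling turned the direction of Insr to −0.28 and of Dst to −0.68, and it ended the calls of Lpl, Nedd4, Slc2a1 and Trim16. Leaving out the length scaling, 17 pairs in place of 14 switched order, with 12 pairs in both counts. With the depth unknown, counting error and spread between animals cannot be told apart.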
